A study of Mus musculus with 6 samples.

Results

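The genes described here build the kinetochore, the protein structure that forms on the centromere of each chromosome, and run the checkpoint that watches it. They were taken by symbol from a fixed list of 44 centromere, kinetochore, checkpoint and chromosomal passenger genes, and all 44 occurred in the count table of 49997 gene symbols. Those with 60 or more counts summed over the 6 libraries are described one by one, which left 33, and the remaining 11 are named with their counts. The RNA came from small pre-B cells sorted from bone marrow of C57BL/6 mice aged between 6 and 12 weeks. One group was wild type (WT) and the other carried the genotype labelled rsCBE, written ΔrsCBE in the series' design text, with 3 libraries each. The series title places the work in CTCF-mediated chromatin topology and receptor editing, but the labels do not say which interval the genotype removes, nor whether each library came from 1 animal or from several. P-values therefore measure the spread between these libraries, which may in part be technical.

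A kinetochore is assembled in layers. Nucleosomes with the histone variant CENP-A mark the centromere, an inner layer called the constitutive centromere-associated network (CCAN) sits on them, and an outer layer made of the Knl1, Mis12 and Ndc80 complexes binds the spindle microtubules. The spindle checkpoint proteins gather on kinetochores that lack attachment and delay anaphase, while the chromosomal passenger complex corrects wrong attachments. Many of these genes are transcribed mainly from late S phase to mitosis. In B-cell development the large pre-B cells divide, and the small pre-B cells that follow are largely quiescent and recombine their light chain loci.

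Genes of this kind often carry a cell cycle genes homology region (CHR) close to the start of transcription, a short element bound by the MuvB-containing complexes that repress or activate mitotic genes, with CCAAT boxes upstream of it. The 30 bases around the CHR nearest the start are shown for the 6 genes that fell most clearly among those with such a match. A CHR was searched as TTTGAA or TTCGAA on both strands, from 250 bases before to 50 after each start, in RefSeq promoters of GRCm38.p6. Capitals mark the CHR, and Ndc80 holds it on the other strand, as TTCAAA.
Knl1 (chr2:119047138-119047167, plus strand): agggcggttagaTTTGAAtacttcagggac
Bub1b (chr2:118598231-118598260, plus strand): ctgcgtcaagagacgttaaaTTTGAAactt
Cenpf (chr1:189688067-189688096, minus strand): ggcggcgggcagTTTGAAtcgctcgtgctg
Ndc80 (chr17:71526811-71526840, minus strand): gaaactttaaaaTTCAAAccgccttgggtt
Bub1 (chr2:127831828-127831857, minus strand): ctgcgcggggaaTTCGAAtcgccggcggcc
Spc25 (chr2:69206172-69206201, minus strand): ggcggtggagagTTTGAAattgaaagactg

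In 3 of these 6 promoters, CCAAT boxes (on either strand) precede the CHR nearest the start and that CHR ends no more than 30 bases into the transcript, and these stretches are shown from just before the first box to the end of the CHR. Capitals mark both motifs, and the CCAAT box reads ATTGG where it lies on the other strand.
Cenpf (chr1:189688079-189688226, minus strand): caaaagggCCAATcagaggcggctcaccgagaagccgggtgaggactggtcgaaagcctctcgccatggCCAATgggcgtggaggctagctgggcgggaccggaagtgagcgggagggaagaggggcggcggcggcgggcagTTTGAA
Bub1 (chr2:127831840-127831935, minus strand): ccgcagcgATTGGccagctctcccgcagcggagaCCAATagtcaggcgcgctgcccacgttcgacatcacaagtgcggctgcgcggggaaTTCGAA
Spc25 (chr2:69206184-69206276, minus strand): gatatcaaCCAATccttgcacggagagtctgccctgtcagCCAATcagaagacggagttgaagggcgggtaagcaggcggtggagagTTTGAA

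Libraries held between 428106 and 1300805 counts, so 3 counts, taken as the smallest detectable amount, were worth 2.32 to 7.17 CPM (counts-per-million, scaled by TMM factors). Intervals and such floors cover counting error only. The 12 B-lineage markers checked, among them Cd79a, Pax5 and Rag1, all had counts and summed to 12235 to 14397 CPM in WT and 13169 to 13778 CPM in ΔrsCBE. Of 9 erythroid and 9 T and NK cell markers, 7 each were at 0 in all libraries (Klf1, Cd3e and Trac among them), and the summed CPM stayed at or below 1.01 and 2.46. Of 9 myeloid markers Elane, S100a8 and Ly6g were at 0 and most counts came from Itgam, with a sum of 52.5 to 81.2 CPM in WT and 53.1 to 66.4 CPM in ΔrsCBE. Among 6 plasma cell markers, Tnfrsf17 was at 0 and the sums, mostly Irf4, were 1104 to 1227 and 1104 to 1393 CPM. The labels name no sex. In ΔrsCBE replicates 2 and 3 the count of Xist was 1603 and 1430, with no more than 1 in any other library, and Y-linked genes were at 0 there against 121 to 452 counts elsewhere. All WT libraries and ΔrsCBE replicate 1 thus had a male pattern.

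The genotype comparison asked whether these genes are expressed at other levels in ΔrsCBE small pre-B cells. Counts in the 44 genes took 0.256%, 0.277% and 0.269% of each WT library (replicates 1 to 3), and 0.133%, 0.164% and 0.119% of each ΔrsCBE library. The smallest lower Wilson bound (95%) in WT was 0.244% and the highest upper bound in ΔrsCBE was 0.172%, so the libraries of the genotypes did not overlap. Mean shares were 0.267% ± 0.0106 and 0.139% ± 0.0232 (SD, n = 3), a ratio of 1.93 of WT over ΔrsCBE. In bulk RNA, fewer dividing cells in the sort and less of these transcripts per cell cannot be told apart.

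The test was edgeR's quasi-likelihood test over all 7792 genes that passed the count filter, with Benjamini-Hochberg adjustment, and a gene was called where its adjusted p-value was under 0.05. Of the 44 genes 32 were tested and 13 fell: Bub1, Bub1b, Ttk, Ndc80, Nuf2, Spc25, Knl1, Cenpf, Cenpe, Kntc1, Incenp, Sgo1 and Sgo2a. None rose. Of all tested genes, 1.69% were called and 1.49% were called lower. The fall was between 1.67-fold (Incenp) and 3.03-fold (Bub1) by group means. At an unadjusted p-value under 0.05 there were 25 of the 32, against 10.2% of all tested genes.

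Of the 32 tested genes, 13 had all 3 WT libraries but fewer than 3 ΔrsCBE libraries at the level the filter asks for. A lower value in ΔrsCBE is likely in them from the start. Among the called genes these were Kntc1, Bub1, Ttk and Sgo1, each with 2 ΔrsCBE libraries at that level. In the other 9 called genes every library reached it. Without a count filter all 44 genes entered the same test and 14 were called lower, with Cdca8 as the added gene, where 0.981% of all 17435 genes with a count were called in either direction. The median log2 fold change over the 44 was then -1.02, against 0.001 for all genes with a count, and 43 of the 44 estimates were below 0. The exception was Oip5, with 11 counts in all. In the plot of all tested genes the 32 lie below the middle of the cloud at every level, with Zwint and Mad1l1 close to 0.

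**Figure D1:**
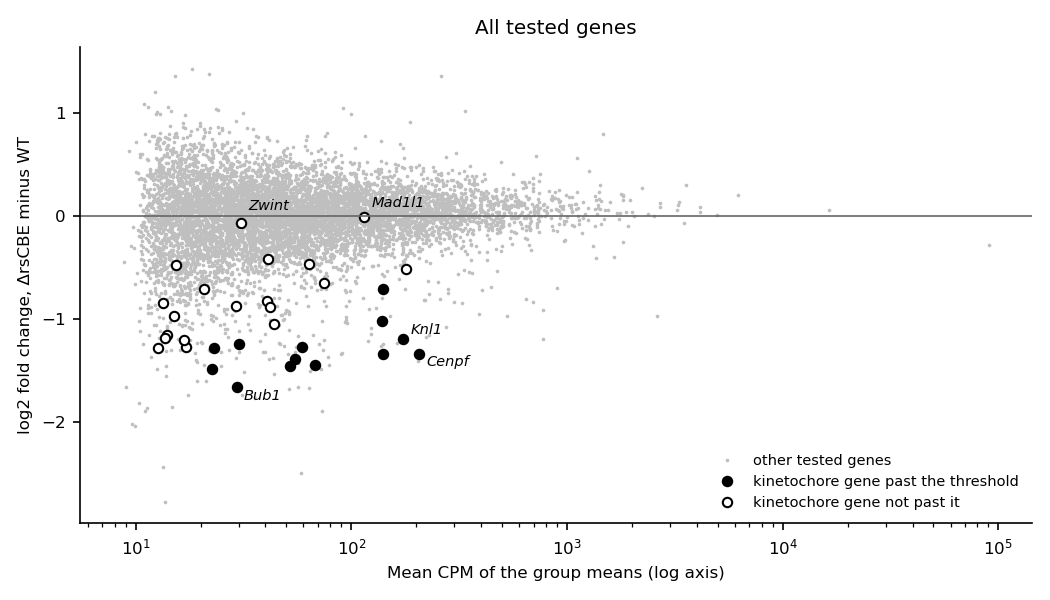
Each point is a tested gene, with the mean of the 2 group means in CPM on a logarithmic horizontal axis and the log2 fold change, ΔrsCBE minus WT, on the vertical axis. Filled circles are the 13 kinetochore and checkpoint genes past the threshold and open circles the other 19 tested ones, all of them at or below 0.

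The Ndc80 complex, a rod of 4 proteins that grips the microtubule, had 3 genes that fell, where 1.49% of all tested genes were called lower. Ndc80 (chromosome 17, 71496100 to 71526857, minus strand, GRCm38), the head subunit, was measured at 72.7, 78.8 and 86.5 CPM in the WT libraries (replicates 1 to 3, as in all lists of values here) and at 26.0, 27.2 and 39.3 CPM in the ΔrsCBE libraries. Nuf2 (chromosome 1, 169497934 to 169531464, minus strand), its partner in the head, had 77.4, 93.2 and 126 CPM against 34.2, 44.3 and 33.2 CPM. For both, every ΔrsCBE library lay far below the lowest WT library. Their log2 fold changes were -1.39 with a standard error (SE) of 0.22 for Ndc80 (edgeR adjusted p-value 0.000537) and -1.44 with an SE of 0.22 for Nuf2 (0.000253). Spc25 (chromosome 2, 69193895 to 69206194, minus strand), in the part of the rod that faces the inner kinetochore, had 66.3, 78.8 and 85.0 CPM in WT and 18.9, 47.3 and 16.0 CPM in ΔrsCBE, with replicate 2 well above the other two. Its log2 fold change was -1.45 with an SE of 0.29 (edgeR adjusted p-value 0.00579), and the call was lost without WT replicate 3 (0.0935) or without ΔrsCBE replicate 3 (0.0554). Spc24, the partner of Spc25, had group means of 19.1 ± 2.08 and 8.71 ± 0.973 CPM (SD, n = 3) from 69 counts. Its libraries were separate by genotype without a call (log2 fold change -1.15, SE 0.39, edgeR adjusted p-value 0.182).

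Knl1 (chromosome 2, 119047119 to 119105501, plus strand), the scaffold on which the Bub proteins gather, ranked first of the 32 tested genes by adjusted p-value. It stood at 242, 248 and 237 CPM in WT and at 116, 117 and 83.6 CPM in ΔrsCBE. The WT libraries were nearly equal, and the highest ΔrsCBE library was far under them. Its log2 fold change was -1.19 with an SE of 0.15 (edgeR adjusted p-value 4.17e-05). Zwint, which binds Knl1 and forms a complex with it, was not past the threshold. It had 28.4, 23.9 and 39.4 CPM in WT and 24.8, 36.2 and 31.9 CPM in ΔrsCBE, fully overlapping (log2 fold change -0.06, SE 0.28, edgeR adjusted p-value 0.976). Between these partners the difference in response was not tested. The sign for Zwint was not stable either, with estimates from -0.40 to 0.23 over the alternatives tried.

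The Mis12 complex connects the inner layer to Knl1 and Ndc80. None of its genes passed the threshold. In 3 of them ΔrsCBE lay below WT without overlap, as did 8.95% of all tested genes. Mis12 had 75.8, 117 and 85.0 CPM in WT and 64.9, 62.4 and 44.2 CPM in ΔrsCBE, so that its WT replicate 1 was close to ΔrsCBE replicate 1 (log2 fold change -0.65, SE 0.21, edgeR adjusted p-value 0.145). For Pmf1 the means were 55.9 ± 15.8 and 28.2 ± 11.1 CPM (SD, n = 3; log2 fold change -0.88, SE 0.28, edgeR adjusted p-value 0.140). This gene was called only without ΔrsCBE replicate 2 (0.0164) and with the replicate number as a block (0.0405). Dsn1 had exactly 60 counts, did not pass the filter, and overlapped between the genotypes. Nsl1, at 59 counts, stood just under the limit of the listing and was tested all the same. It had 18.4 ± 4.16 and 7.07 ± 3.06 CPM (log2 fold change -1.28, SE 0.45, edgeR adjusted p-value 0.214). It passed the filter through WT only, with no ΔrsCBE library at the level the filter asks for. Just inside that limit lay Dsn1 and Ska2, with 60 and 62 counts.

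On the outermost fibrous layer, the corona, 3 of 5 genes fell, against 1.49% of all tested genes called lower. Cenpf (chromosome 1, 189640606 to 189688086, minus strand), a very large coiled-coil protein that accumulates in G2, had the most counts of all 44 genes, 1024. Its values were 269, 306 and 316 CPM in WT and 99.1, 165 and 84.8 CPM in ΔrsCBE. The log2 fold change was -1.34 with an SE of 0.18 (edgeR adjusted p-value 0.000157), and the highest ΔrsCBE library, replicate 2, was still far from the lowest WT library. Cenpe (chromosome 3, 135212537 to 135273611, plus strand), a kinesin that carries chromosomes to the spindle equator, had 150, 198 and 207 CPM against 76.7, 124 and 72.5 CPM. Here ΔrsCBE replicate 2 came nearest to WT replicate 1 (log2 fold change -1.02, SE 0.19, edgeR adjusted p-value 0.00247), and the call was lost without WT replicate 3 (0.0653). Kntc1 (chromosome 5, 123749716 to 123821593, plus strand), also known as Rod, belongs to the complex that brings dynein to the kinetochore. It had 41.1, 50.2 and 37.8 CPM in WT and 17.7, 23.1 and 11.1 CPM in ΔrsCBE, without overlap. With a log2 fold change of -1.24 and an SE of 0.30 (edgeR adjusted p-value 0.0301), it lost its call in 6 of 14 alternatives: the DESeq2 Wald test (adjusted p-value 0.0902), the sex covariate (0.242), and without WT replicate 1 (0.0749), WT replicate 2 (0.126), WT replicate 3 (0.104) or ΔrsCBE replicate 3 (0.222). Its partner Zwilch and the dynein adaptor Spdl1 had estimates of much the same size, -1.27 (SE 0.38) and -1.20 (SE 0.40), from 86 counts each. They were not past the threshold (edgeR adjusted p-values 0.101 and 0.174). Among the alternatives Spdl1 was called only without ΔrsCBE replicate 2 (0.0388).

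Of the 5 checkpoint genes tested 3 fell, all of the kinase or pseudokinase kind, against 1.49% of all tested genes called lower. Bub1 (chromosome 2, 127801122 to 127831865, minus strand), which marks the inner centromere through histone H2A, had the lowest fold change of the 32. It had 37.9, 40.6 and 54.1 CPM in WT and 16.5, 10.1 and 17.2 CPM in ΔrsCBE (log2 fold change -1.66, SE 0.31, edgeR adjusted p-value 0.00216). Bub1b (chromosome 2, 118598211 to 118641591, plus strand), or BubR1, is part of the complex that inhibits the anaphase-promoting complex. Its values were 201, 194 and 211 CPM in WT and 87.3, 96.6 and 55.3 CPM in ΔrsCBE, with tight WT libraries far above all others (log2 fold change -1.33, SE 0.17, edgeR adjusted p-value 4.52e-05). Ttk (chromosome 9, 83834689 to 83872389, plus strand), or Mps1, the kinase that starts checkpoint signalling, had 23.7, 45.4 and 32.4 CPM against 8.26, 14.1 and 12.3 CPM. The WT values scattered, but the lowest was above the highest of ΔrsCBE (log2 fold change -1.48, SE 0.35, edgeR adjusted p-value 0.0217). The call was lost in 6 of 14 alternatives: the DESeq2 Wald test (adjusted p-value 0.0759), the sex covariate (0.0839), and without WT replicate 2 (0.111), WT replicate 3 (0.143), ΔrsCBE replicate 1 (0.0748) or ΔrsCBE replicate 3 (0.0922). For Bub1 it was lost without WT replicate 3 (edgeR adjusted p-value 0.0924) and with the sex covariate (0.108).

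Bub3 and Mad1l1 were tested and not called. Bub3, the adaptor that docks Bub1 and Bub1b on Knl1, had 82.1, 86.0 and 57.9 CPM in WT and 60.2, 58.4 and 38.1 CPM in ΔrsCBE. WT replicate 3 lay inside the ΔrsCBE range, and the gene was not past the threshold (log2 fold change -0.46, SE 0.22, edgeR adjusted p-value 0.490). Mad1l1, which holds Mad2 at the kinetochore and at nuclear pores, had the highest fold change of the 32 tested genes. It had 131, 112 and 105 CPM in WT and 111, 131 and 99.5 CPM in ΔrsCBE, with overlapping groups (log2 fold change -0.01, SE 0.17, edgeR adjusted p-value 0.995). With 571 counts it was among the better measured genes, and an interval of 2 SE around its estimate ran from -0.34 to 0.32. Its estimates lay between -0.12 and 0.09 under the alternatives, with either sign. The Mad1l1 gene overlaps annotated entries on both strands, and Bub3 overlaps Fgfr2 on the opposite strand. Mad2l1, the checkpoint effector itself, had 42 counts and was not tested.

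In the plot of CPM by library the WT and ΔrsCBE symbols separate for each called gene and meet for Bub3 and Mad1l1.

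**Figure D2:**
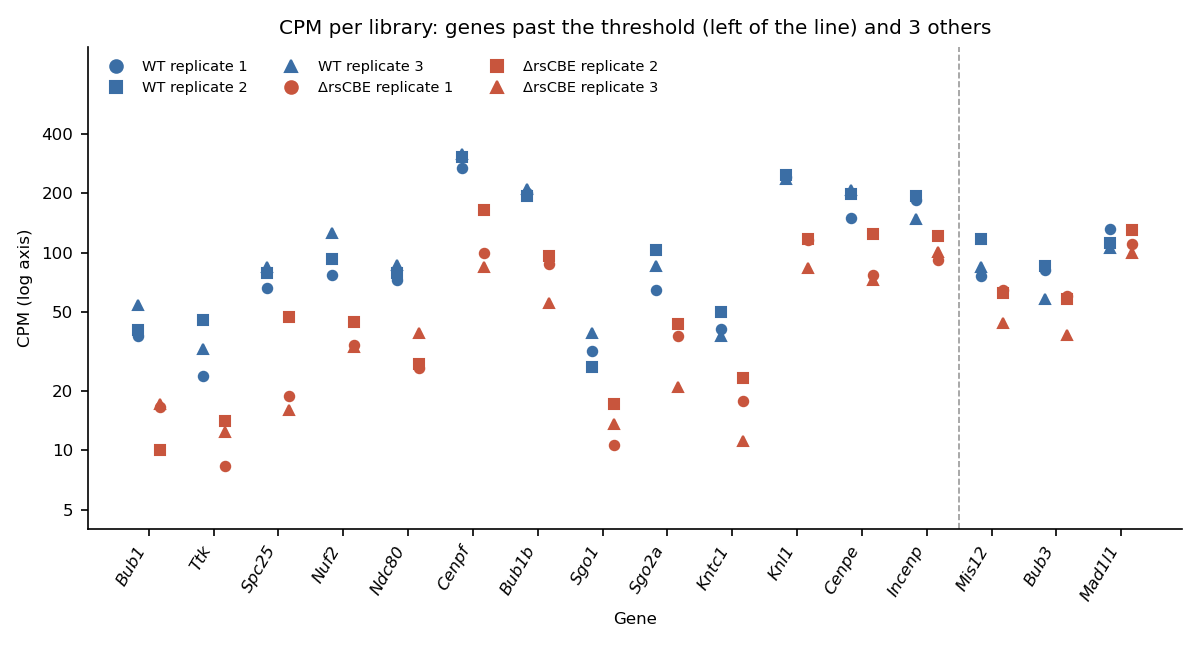
CPM of each library on a logarithmic axis for the 13 genes past the threshold, ordered by fold change, and for Mis12, Bub3 and Mad1l1 right of the dashed line. Blue symbols are WT and red symbols ΔrsCBE, with circles, squares and triangles for replicates 1 to 3. The red squares (replicate 2) are often the highest red symbols.

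The passenger complex and the shugoshins act at the inner centromere. Incenp (chromosome 19, 9872296 to 9899551, minus strand), the scaffold of the passenger complex, had 185, 194 and 148 CPM in WT and 92.0, 122 and 101 CPM in ΔrsCBE. This was the smallest fall among the called genes, with a log2 fold change of -0.71 and an SE of 0.16 (edgeR adjusted p-value 0.0164). The call was lost in 4 of 14 alternatives, without WT replicate 1 (0.0931), WT replicate 2 (0.0958), ΔrsCBE replicate 1 (0.0531) or ΔrsCBE replicate 3 (0.111). Cdca8, or Borealin, which targets the complex to the centromere, had 60.1 ± 15.5 and 27.4 ± 12.1 CPM (SD, n = 3). It missed the threshold narrowly (log2 fold change -1.05, SE 0.28, edgeR adjusted p-value 0.0606), and was called in 5 of 14 alternatives. Those were no count filter (0.0114), the filter at 1 CPM in 3 libraries (0.0112) and the replicate number as a block (0.0365). The others were leaving out ΔrsCBE replicate 2 (0.00214) and the looser threshold of 0.1.

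Sgo1 (chromosome 17, 53674786 to 53689333, minus strand), the shugoshin that protects centromeric cohesin until anaphase, had 31.6, 26.3 and 39.4 CPM in WT and 10.6, 17.1 and 13.5 CPM in ΔrsCBE. The groups were separate but the counts few, 119 in all (log2 fold change -1.28, SE 0.33, edgeR adjusted p-value 0.0382), and the call was lost in 7 of 14 alternatives. Those were the DESeq2 Wald test (adjusted p-value 0.212), the replicate number as a block (0.0783), the sex covariate (0.116), and leaving out WT replicate 1 (0.0739), WT replicate 3 (0.374), ΔrsCBE replicate 1 (0.0927) or ΔrsCBE replicate 3 (0.173). Sgo2a (chromosome 1, 57995971 to 58025899, plus strand), the second shugoshin, had 64.8, 103 and 85.7 CPM in WT and 37.8, 43.3 and 20.9 CPM in ΔrsCBE. Its log2 fold change was -1.27 with an SE of 0.24 (edgeR adjusted p-value 0.00313), and the call was lost without WT replicate 3 (0.0512) and with the sex covariate (0.125). Reads of Sgo2a are uncertain where they also match its near copy Sgo2b, which is listed at 0. Among the called genes Sgo2a and Cenpf overlap annotated genes on the opposite strand (Kctd18 and Gm37239), and Ndc80 and Incenp overlap entries on their own strand (Gm23115 and AC132253.8). Whether counting used the strand is not stated.

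The centromere layer itself had 0 called genes of 16 by edgeR without the count filter. With the filter 8 were tested, and neither edgeR nor the DESeq2 Wald test called any. At an unadjusted edgeR p-value under 0.05 there were 4 of the 8 tested, against 10.2% of all tested genes. Cenpa, the histone variant that defines the centromere, had 50.5, 47.8 and 57.1 CPM in WT and 23.6, 29.2 and 36.9 CPM in ΔrsCBE. The groups were apart, yet the gene was short of the threshold (log2 fold change -0.82, SE 0.24, edgeR adjusted p-value 0.0937). Among the alternatives it passed only at the looser threshold of 0.1. Its chaperone Hjurp had 879 counts, and its group means were 211 ± 12.1 and 147 ± 13.3 CPM (SD, n = 3). That gave an estimate of -0.51 on the log2 scale, SE 0.14 (edgeR adjusted p-value 0.0606). It passed only without ΔrsCBE replicate 1 (0.0447) and at the looser threshold of 0.1. Mis18a and Oip5, which license new CENP-A, had 41 and 11 counts.

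Of the 12 CCAN genes, 6 were tested and none was called. Cenpo had the steadiest values of them, at 38.0 ± 2.98 CPM for WT against 20.7 ± 0.566 CPM (SD, n = 3). The log2 fold change was -0.87 with an SE of 0.28 (edgeR adjusted p-value 0.145). It overlaps Adcy3 and other genes on the opposite strand. Cenpl, Cenpi and Cenpn had log2 fold changes of -0.96, -0.84 and -0.71, and Cenpi and Cenpn overlapped because of ΔrsCBE replicate 2, at 19.1 and 24.2 CPM. For Cenpt and Cenpq they were -0.47 and -0.41, and Cenpp, with 67 counts, did not pass the filter. A CCAN gene had a median of 67 counts over all libraries, against 266.5 in the Ndc80 complex, so a fall of the size seen in Ndc80 would be harder to detect here. Summed over its 12 genes, the CCAN took 191, 268 and 224 CPM in WT and 103, 147 and 140 CPM in ΔrsCBE, without overlap. Its ratio of group means was 1.75, against 2.63 for the Ndc80 complex and 1.47 for CENP-A and its deposition factors. Whether the layers differ in their response was not tested.

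The other genes under 60 counts were Cenpm with 54, Cenpu with 31, Cenpk with 26, Cenph with 15 and Cenpw with 14 in the CCAN, and Ska1 and Ska3 with 56 and 50. The Ska complex keeps kinetochores on shrinking microtubules. The gene of that complex with most counts, Ska2, had 19.7 ± 7.78 and 7.73 ± 3.52 CPM (SD, n = 3), and was not past the threshold (log2 fold change -1.18, SE 0.45, edgeR adjusted p-value 0.282). For Cenpm, Cenpu and Ska1 the libraries of the genotypes did not overlap, and all 3 were lower in ΔrsCBE. Over the whole list 29 of 44 genes were without overlap, each with ΔrsCBE below WT, and 26 of these were among the 32 tested. Of all tested genes, 8.95% were separate in that direction.

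**Figure D3:**
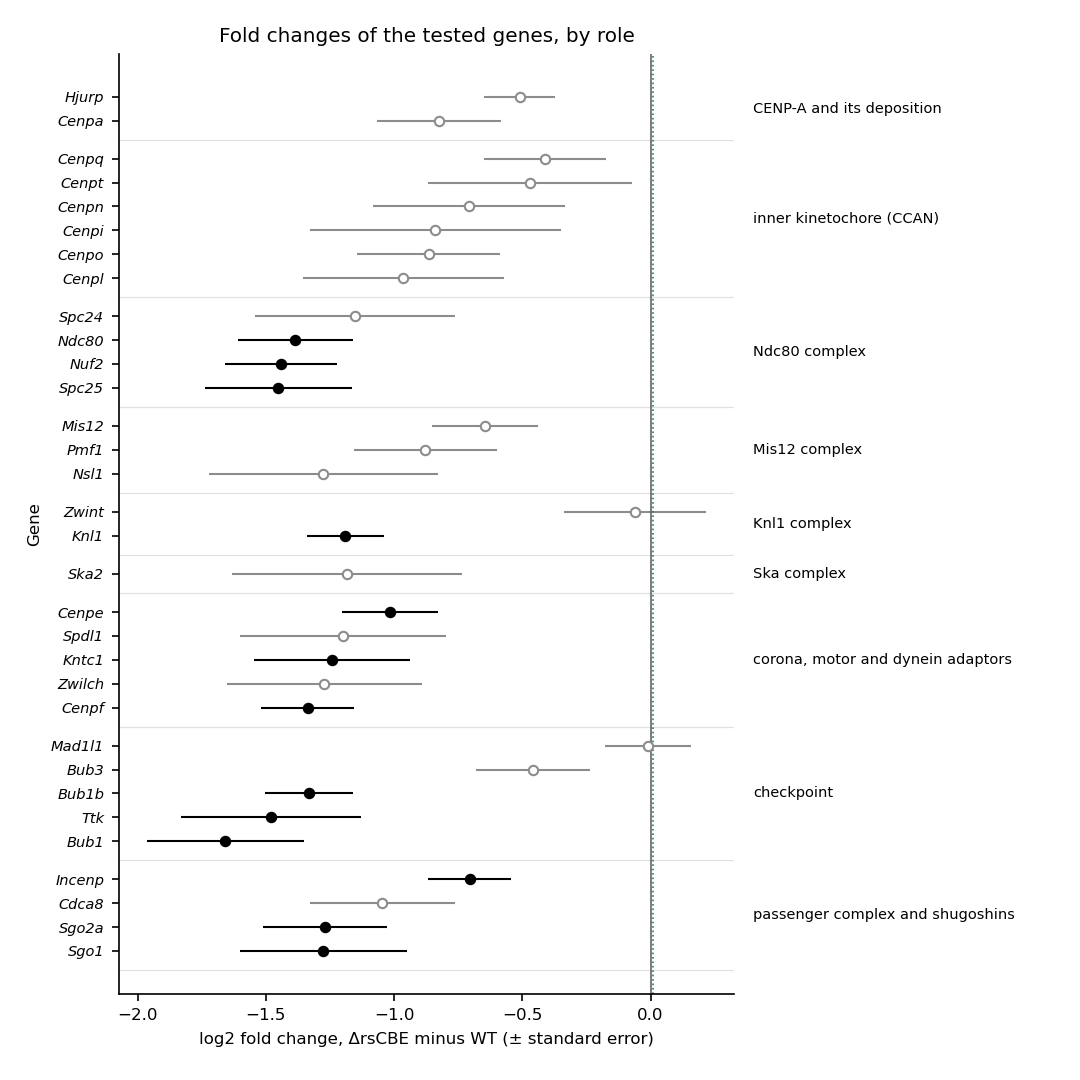
Log2 fold changes, ΔrsCBE minus WT, of the 32 tested genes with their standard errors, grouped by role. Filled points passed the threshold, open points did not, the solid line marks 0 and the dotted line the median of all tested genes (0.01). Zwint and Mad1l1 sit near 0, while Knl1 and Bub1b lie below -1.

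The 3 ΔrsCBE libraries were not alike. Over the 31 genes that had 60 or more counts and were tested, replicate 2 was the highest ΔrsCBE library for 21 and the lowest for 3, and replicate 3 was the lowest for 16. All the same, replicate 1 was below every WT library for 28 of the 31, replicate 2 for 25 and replicate 3 for 30. Counts per library were not taken over all tested genes, of which 8.95% had every ΔrsCBE library below WT. A score was taken over the 32 tested genes as the mean deviation of log2 CPM from each gene's mean over the libraries. It came to 0.38, 0.58 and 0.49 for the WT libraries and -0.60, -0.20 and -0.64 for the ΔrsCBE libraries. It includes the 13 genes that passed the filter through WT only, in which a lower ΔrsCBE value is likely from the start. With sex as a covariate, where the genotype term rests on ΔrsCBE replicate 1 against the WT libraries, the median log2 fold change of the 32 was -1.17, against -1.10 without it. With that covariate 8 of the 32 were called, all of them among the 13, and Kntc1, Bub1, Ttk, Sgo1 and Sgo2a were not. The count was 6 without WT replicate 3 and 8 without ΔrsCBE replicate 3. In each of these fits 59 of all tested genes were called, against 132 with all libraries. Ndc80, Nuf2, Knl1, Cenpf and Bub1b were called in all 14 alternatives.

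Transcripts of other proteins at the centromere and kinetochore were read from a list of 30 further genes. Of these 21 were tested, 8 fell and none rose, where 1.69% of all tested genes were called and 1.49% were called lower. The median log2 fold change of the 21 was -0.73. The enzyme and the survivin subunit of the passenger complex fell with Incenp: Aurkb had 66.3, 83.6 and 50.2 CPM in WT and 33.0, 27.2 and 19.7 CPM in ΔrsCBE (log2 fold change -1.24, SE 0.26, edgeR adjusted p-value 0.00668). Birc5 had 61.6, 83.6 and 74.9 CPM against 21.2, 38.2 and 25.8 CPM (log2 fold change -1.33, SE 0.24, edgeR adjusted p-value 0.00184). For each of these genes the libraries were well separated. Cdc20, the target of the checkpoint, and Plk1, a mitotic kinase, fell too, with log2 fold changes of -1.14 and -1.32 (edgeR adjusted p-values 0.0104 and 0.0106). Ckap5 and Spag5, which act on spindle microtubules, and Rbbp4, a histone chaperone, fell with log2 fold changes of -0.80, -1.02 and -0.70 (edgeR adjusted p-values 0.00235, 0.00668 and 0.00111). Some of these calls were lost under alternatives. Aurkb lost its call without ΔrsCBE replicate 3 (edgeR adjusted p-value 0.080) and with the sex covariate (0.282). For Cdc20 this happened without WT replicate 3 (0.261) or ΔrsCBE replicate 3 (0.0922), with the sex covariate (0.237) and in the DESeq2 Wald test (0.0703). For Plk1 it did without WT replicate 2 (0.0564), WT replicate 3 (0.166) or ΔrsCBE replicate 3 (0.103). Spag5 was not called without WT replicate 3 (0.233) or ΔrsCBE replicate 3 (0.0838), nor with the sex covariate (0.0528). Cenpb, which binds a repeat motif of the centromere, and Cenpc1, which links CENP-A to the outer kinetochore, had estimates of -0.17 and -0.26 and were not past the threshold (edgeR adjusted p-values 0.867 and 0.790).

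Mitotic and replication genes were read beside them. Of 13 mitotic cyclins, kinases and their regulators 9 were tested and 4 were called, all lower, with a median log2 fold change of -0.99. Of 24 DNA replication genes 21 were tested and 1 was called, also lower, with a median of -0.40. Of all tested genes 1.69% were called. At an unadjusted edgeR p-value under 0.05 there were 7 of the 9 mitotic and 9 of the 21 replication genes, against 10.2% of all. Without overlap, ΔrsCBE below WT, were 6 mitotic and 7 replication genes, against 8.95% of all. On the replication genes the WT libraries scored 0.26, 0.09 and 0.19 and the ΔrsCBE libraries -0.23, 0.03 and -0.33. There ΔrsCBE replicate 2 was close to WT replicate 2, while in the kinetochore score the nearest libraries of the genotypes were 0.38 and -0.20. The 2 gaps cannot be compared directly, because 13 genes in the kinetochore score passed the count filter through WT only. Whether the lists differ from each other was not tested.

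**Figure D4:**
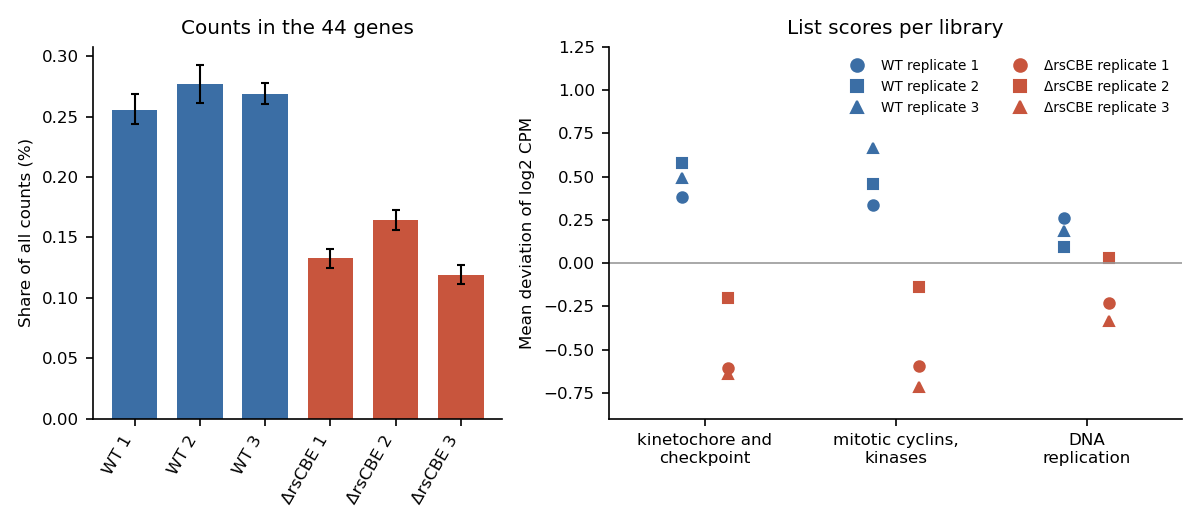
Left, share of all counts that fell in the 44 genes in each library, with 95% Wilson intervals for counting error. Right, score of each library on 3 lists (mean deviation of log2 CPM over the tested genes). WT is blue and ΔrsCBE red, and the gap between them is narrowest for the replication genes. The kinetochore score includes 13 genes that passed the count filter through WT only.

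The promoters of these genes shared letters that the list did not use. RefSeq promoters of GRCm38.p6 were found for 39 of the 44 genes, and not for Spc24, Nsl1, Ska1, Zwilch and Incenp. A gene counted as holding a motif if any of its promoter windows did. A CHR as defined above occurred in 22 of the 39 (56.4%), in 17.0% of the 6000 tested genes with a promoter, and in 21.7% of all 27025 genes with one. CCAAT, on either strand, occurred in 28 of the 39 (71.8%) and in 43.5% of the tested genes, and both motifs together in 18 (46.2%) and 7.47%. Of all 27025 genes, 41.1% held a CCAAT and 8.61% held both motifs. The motifs were also common in the replication genes. Of the 19 with a promoter, 31.6% held a CHR, 63.2% a CCAAT and 26.3% both. A match describes letters and is neither a site nor a cause.

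Among the 12 called genes with a promoter, 9 had a CHR, and the match nearest the start began between position -8 (Kntc1) and position 41 (Bub1b), where 1 is the first transcribed base. It began at 3 in Cenpf, at 8 in Ttk, at 15 in Bub1, at 25 in Spc25, at 28 in Sgo1, at 30 in Ndc80 and at 32 in Knl1. Bub1b held another match, at -188. In Kntc1 the CHR overlaps a CCAAT. The span of -8 to 41 was taken from these genes, so their own count in it is no result. It held a CHR in 2.57% of the 6000 tested genes with a promoter. Of the 16 tested genes of the list with a promoter but no call, 4 had one there: Cenpa, Hjurp, Spdl1 and Cdca8. In Cenpn, also tested without a call, a CHR began at -9, just outside the span. Nuf2, Cenpe and Sgo2a were called without a CHR in the window, and neither Zwint nor Mad1l1 had one. Without the count filter the median log2 fold change was -1.19 over the 22 genes with a CHR and -0.85 over the 17 without. Called genes numbered 9 and 3 in these groups, which include untested genes. Of the 16 tested genes with a promoter but no call, 8 held a CHR in the window, among them Hjurp and Bub3 with estimates of -0.51 and -0.46. For CCAAT the medians were -1.02 over 28 genes with it and -0.86 over 11 without, with 9 and 3 called. Whether such groups differ was not tested.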

How the data were processed

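Per the submitters' processing notes the libraries were handled with Trim Galore 0.6.10, STAR 2.7.11, HTSeq and DESeq2 on mm10, with no role or order given; the annotation and the strand setting of the counting are not given in the sources used here. The deposited table holds whole-number read counts per gene symbol, 1 column per library, not normalized by the authors. Total RNA was depleted of ribosomal RNA and prepared with a stranded kit, per the labels' protocols.

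All genes were tested together with edgeR 4.0.16 in R 4.3.3: filterByExpr (minimum count 10), TMM factors, glmQLFit with robust estimation, genotype as sole factor, Benjamini-Hochberg adjustment. Standard errors were derived from the F statistic. CPM used total counts times the TMM factor, and log2 CPM in scores a prior count of 2. The script was tested on simulated data. DESeq2 1.42.0 served as an alternative. Alternatives covered scaling, test, filter, threshold, each library left out, a replicate block and a sex covariate. Same-numbered libraries of the genotypes were not taken as pairs.

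The kinetochore genes, the other lists and the rule for naming genes (every listed gene with 60 or more counts, per-library values for each called gene and for Bub3, Mis12 and Mad1l1) were chosen with earlier results of these data known. Of the list of other genes, those past the threshold were named, except 1 that is not reported here; Cenpb and Cenpc1 were added after their values were seen, as was the span used for CHR positions. Gene coordinates are from GENCODE M21 (GRCm38, the same assembly as mm10). No chi-square per degree of freedom between replicates of a genotype was under 1.78, so none was counted as a repeat of another.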

Additional observations from a re-analysis of the deposited data

How the results depend on the processing

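DESeq2 size factors, library size alone, the DESeq2 Wald test and no count filter were tried. So were a filter at 1 CPM in 3 libraries, the threshold of 0.1 and the replicate block. Under these, 10 to 16 kinetochore genes were called (13 as reported), all lower. In the same fits 92 to 188 of all tested genes were called (132 as reported). The median log2 fold change over all tested kinetochore genes, called or not, lay between -1.13 and -1.01. That covered 32 genes, or 44 without a count filter and with the 1 CPM filter. With the sex covariate 8 were called, all 8 lower, and 5 of the 30 other kinetochore and centromere genes in place of 8; in that fit the genotype term rests on ΔrsCBE replicate 1. Leaving out 1 library gave 6 (without WT replicate 3) to 16 (without ΔrsCBE replicate 2) called genes, all lower. Of the other genes 4 to 10 were called. Calls among all tested genes then ran from 59 (without WT replicate 3 or ΔrsCBE replicate 3) to 187 (without ΔrsCBE replicate 2). Medians over the tested kinetochore genes ran from -1.30 (without ΔrsCBE replicate 2) to -0.97. With fewer libraries a lower count is partly set by the smaller sample. No called gene changed sign under any of these. Deviations of same-numbered libraries correlated at 0.01, 0.02 and 0.01 (replicates 1 to 3), and not each highest with its own number. Between libraries of other numbers the correlations ran from -0.05 to 0.03. Whether same-numbered libraries were prepared together was not tested. The replicate block gave 14 called genes, 12 of them among the 13. Depth limits the 12 untested genes, for which changes were not detectable one by one.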
